A study of Mus musculus with 4 samples.

Results

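The cells described here were mesenchymal cells of the embryonic thymus that carried UMIs of posterior Hox genes but none of the cartilage collagen gene Col2a1, in the library of hypoplastic Tbx1neo2/neo2 thymuses given carrier alone. They were chosen on raw UMI counts, the number of unique molecules counted per gene and cell. A cell had to hold 200 or more genes and no more than 10% mitochondrial UMIs. It passed a mesenchymal gate if at least 4 of 8 genes (Pdgfra, Pdgfrb, Twist1, Prrx1, Dcn, Lum, Postn and Fbn1) were detected and Epcam, Ptprc and Cdh5 were all at 0. Among gated cells with Col2a1 at 0, those with at least 2 UMIs summed over Hoxa7, Hoxc6, Hoxc8 and Hoxc9 are called Hox-positive, and those with no UMI of these 4 genes Hox-zero. There were 1055 Hox-positive cells among 3080 gated Col2a1-zero cells, of 5205 gated cells and 10683 kept cells in the library, and of 29510 kept cells in the series. The Hox-zero cells of the same library numbered 1712, and a further 313 cells had 1 Hox UMI and belonged to neither set.

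Thymic lobes were dissected at embryonic day (E) 13 to 13.5 from intercrosses of Tbx1+/neo2 mice and profiled by droplet scRNA Seq, with 1 library per condition. The neo2 allele is hypomorphic, so homozygotes make less Tbx1, a T-box transcription factor needed for pharyngeal development. Pregnant dams were injected on E8, E9 and E10. The libraries were Tbx1+/+ given carrier (5% ethanol), Tbx1neo2/neo2 given carrier, Tbx1neo2/neo2 given 200 µl of minoxidil at 0.55 mg/ml, and Tbx1neo2/neo2 given 90 µl of PGE2 (prostaglandin E2) at 3.6 ng/µl. Hypoplastic lobes were combined into pools. How many embryos went into a library, and where in or on the lobe a cell lay, is not recorded. The kept cells numbered 11474 for Tbx1+/+ carrier, 10683 for Tbx1neo2/neo2 carrier, 3201 for minoxidil and 4152 for PGE2, with medians of 21125, 14108, 41084 and 34790 UMIs.

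Hox genes encode homeodomain transcription factors that lie in 4 clusters and are used in order along the body axis. Genes of low paralog number mark the hindbrain and pharyngeal region, and genes of higher paralog number mark progressively more posterior trunk. The mesenchyme around the embryonic thymus is best known for its origin from cranial neural crest, which uses the anterior Hox genes, and it supplies growth factors to the thymic epithelium. Somites and lateral plate mesoderm of the trunk, which give rise to tendon, dermis, muscle, cartilage and body wall, use the more posterior Hox genes.

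The values below are single measurements of single libraries. A level is the UMI count of a gene summed over a set of cells and divided by all UMIs of that set and multiplied by 1e6 (CPM), with an exact Poisson 95% interval, and a share of cells has a Clopper-Pearson 95% interval. Both cover counting error only, no p-value can be given with 1 library per condition, and cells were not treated as replicates. CPM were not scaled to gene length, so levels were compared between sets of cells and not between genes. The selection fixed the levels of the 4 Hox genes. Since the sets compared within the library were chosen by measured values, their differences are a description with no test.

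The targeted gene was scarce in all these cells. Tbx1 was at 0.84 CPM (0.47 to 1.39) in the Hox-positive cells and at 3.61 CPM (2.90 to 4.44) in the Hox-zero cells of the same library. The Hox-zero cells stood at 3.20 CPM (2.68 to 3.79) in Tbx1+/+ carrier, 3.50 CPM (2.84 to 4.28) with minoxidil and 2.09 CPM (1.504 to 2.82) with PGE2. Mesenchymal Tbx1 therefore did not separate the genotypes, and since the position of the counted reads in the transcript is not known, it did not check the allele.

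The sex-linked UMIs and the shared barcodes bear on all comparisons and are given before them. Cells were typed by sex-linked UMIs as Y only (a UMI of Ddx3y, Eif2s3y, Kdm5d or Uty and none of Xist), Xist only, both or neither. Of the Hox-positive cells, 931 were Y only, 1 was Xist only, 15 were both and 108 were neither. The Hox-zero cells of the same library held 1319 Y only and 162 Xist only cells, its Col2a1-positive Hox-zero cells 876 and 9, and its epithelial cells 606 and 373. Cells with Y-linked UMIs thus made up nearly all typed Hox-positive cells in a library that held both sexes, and nearly all typed Col2a1-positive Hox-zero cells as well. The Hox-zero cells were 1441 Y only and 595 Xist only in Tbx1+/+ carrier, 0 and 830 with minoxidil, and 684 and 1 with PGE2, so that treatment and sex cannot be told apart in the drug libraries. The markers and the genes with the largest and smallest ratios are given also within Y only cells, and calls of the gene lists that were lost there are stated for the genes named. Cell barcodes were shared between libraries in small numbers, 35 between the 2 carrier libraries, 11 between Tbx1neo2/neo2 carrier and minoxidil and 14 between Tbx1neo2/neo2 carrier and PGE2, and 1, 0 and 2 of these were Hox-positive cells.

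Hox-positive cells were a large share of the mesenchyme in 1 of the 4 libraries. By the same rule, 2 of 2393 gated Col2a1-zero cells were Hox-positive in Tbx1+/+ carrier (0.0836%, 0.0101 to 0.302), 1055 of 3080 in Tbx1neo2/neo2 carrier (34.3%, 32.6 to 35.96), 1 of 848 with minoxidil (0.118%, 0.00299 to 0.655) and 8 of 758 with PGE2 (1.06%, 0.457 to 2.07). The library with the high share had the fewest UMIs per cell, and depth favours the others. With every cell thinned to 5000 UMIs and Col2a1 read anew, the shares with at least 2 Hox UMIs were 0 of 2390 cells in Tbx1+/+ carrier, which allows a share of up to 0.126% at 3 counts (0.154% as the Clopper-Pearson bound), 22.1% (20.8 to 23.5) in Tbx1neo2/neo2 carrier, 0 of 851 with minoxidil, which allows up to 0.353% (0.433%), and 0.267% with PGE2. The share with at least 1 UMI was 34.8% (33.2 to 36.4) in Tbx1neo2/neo2 carrier and 0.167% (0.0456 to 0.428) in Tbx1+/+ carrier.

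**Figure D1:**
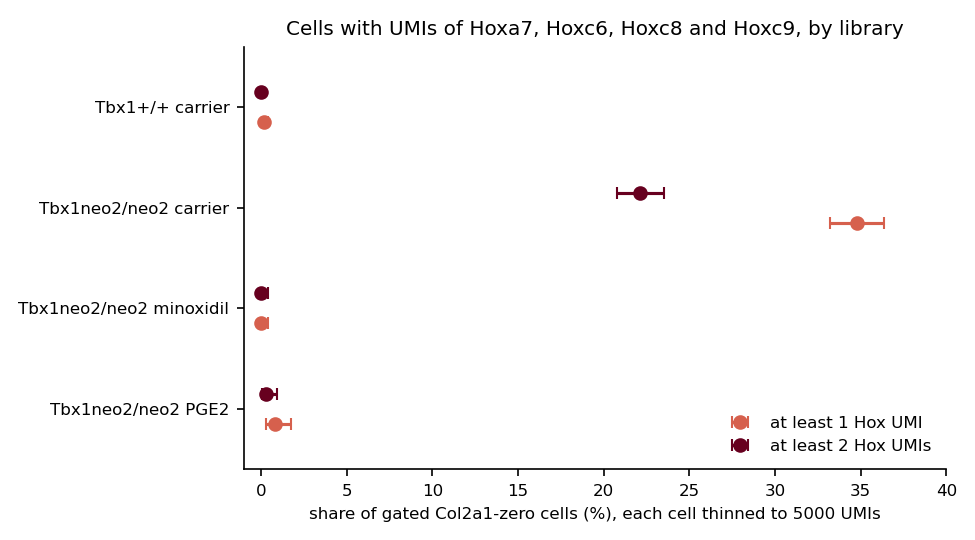
Share of gated Col2a1-zero cells (%) with at least 1 (light) or at least 2 (dark) UMIs summed over Hoxa7, Hoxc6, Hoxc8 and Hoxc9 in each of the 4 libraries, with each cell thinned to 5000 UMIs. Points are shares, bars are Clopper-Pearson 95% intervals, and the Tbx1neo2/neo2 carrier library stands at 34.8% and 22.1% while the other 3 stay at or below 0.8%.

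Thymic epithelium, which is endoderm and outside the gate, was set beside the gated cells. It carried Hoxa7 in both genotypes, so its share is no noise level for the rule on the 4 genes. In epithelial cells of the Tbx1neo2/neo2 carrier library Hoxc6 was at 0.63 CPM, Hoxc8 at 0.81 CPM and Hoxc9 at 0, but Hoxa7 was at 17.3 CPM (15.9 to 18.9). Of the thinned epithelial cells, 7.16% had a UMI of the 4 genes, against 37.1% (35.8 to 38.5) of all thinned gated cells of the library. Epithelial cells of Tbx1+/+ carrier gave 7.14% and gated cells of that library 0.167%, with Hoxa7 at 17.6 CPM and the 3 Hoxc genes at 0. Cells with Ptprc UMIs, which mark blood cells, had Hoxa7 at 14.3 CPM in Tbx1+/+ carrier and 11.8 CPM in Tbx1neo2/neo2 carrier, and 5.005% and 5.39% of them had a UMI of the 4 genes after thinning. Hoxa7 UMIs were thus also found outside the mesenchyme in both genotypes.

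The few cells that passed the same rule elsewhere differed in which Hox genes they carried. The 2 Hox-positive cells of Tbx1+/+ carrier had UMIs of Hoxa7 alone. The 8 with PGE2, all Y only, were at 113 CPM of Hoxc6, 164 CPM of Hoxc8, 41.1 CPM of Hoxc9 and 25.7 CPM of Hoxa7, with Zfhx4 at 375 CPM and En1 at 77.0 CPM. The single cell with minoxidil had UMIs of Hoxc6 alone among the 4 genes.

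Within the Hox-positive cells the 4 genes of the rule were unevenly shared. Hoxa7 was detected in 753 cells (71.4%), Hoxc6 in 793 (75.2%), Hoxc8 in 646 (61.2%) and Hoxc9 in 180 (17.1%). The cells carried a median of 6 Hox UMIs and at most 47. UMIs of 1 of the 4 genes were found in 262 cells (24.8%), of 2 genes in 368 (34.9%), of 3 genes in 326 (30.9%) and of all 4 in 99 (9.38%). Among thinned gated Col2a1-zero cells, Hoxc8 was found in 71.2% (58.7 to 81.7) of those with Hoxc9 and in 13.5% (12.3 to 14.7) of those without. A rule on their sum favours cells with several of the 4 genes, so these shares only describe the members.

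These genes lie in 2 clusters. On GRCm38, Hoxa7 spans chr6:52214491-52221854 on the minus strand beside Hoxa9 at chr6:52223100-52231089. Hoxc9 (chr15:102976439-102985099), Hoxc8 (chr15:102990607-102994111) and Hoxc6 (chr15:102998257-103011881) follow each other on the plus strand. The gene model of Hoxc5 (chr15:102967443-103017429) overlaps all 3, and that of Hoxa3 overlaps Hoxa4, Hoxa5 and Hoxa6, so that counts within each cluster may be split between overlapping models. En1 lies at chr1:120602418-120607992 and Zfhx4 at chr3:5218526-5415857, both on the plus strand. The promoters of Hoxa7, the rule gene of the Hoxa cluster, and of En1, a gene outside the Hox clusters that marked the same cells, are shown because their transcripts were found in Hox-positive cells and were at or near 0 in Tbx1+/+ mesenchyme, and because the promoter table used held them. Each runs from 250 bases before to 50 bases after the RefSeq start (GRCm38.p6), at chr6:52218524-52218823 on the minus strand for Hoxa7 and chr1:120602237-120602536 on the plus strand for En1. Capitals mark TTTATG (read on both strands, a core of the sites of Cdx factors, which regulate Hox genes) or CACGTG (an E-box, its own reverse complement, of the kind that basic helix-loop-helix factors bind).
Hoxa7: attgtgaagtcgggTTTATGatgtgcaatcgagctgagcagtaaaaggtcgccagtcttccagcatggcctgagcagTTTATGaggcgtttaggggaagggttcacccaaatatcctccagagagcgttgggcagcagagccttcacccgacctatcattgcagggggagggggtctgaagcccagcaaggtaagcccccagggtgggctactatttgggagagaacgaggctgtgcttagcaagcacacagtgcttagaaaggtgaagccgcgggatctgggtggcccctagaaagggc
En1: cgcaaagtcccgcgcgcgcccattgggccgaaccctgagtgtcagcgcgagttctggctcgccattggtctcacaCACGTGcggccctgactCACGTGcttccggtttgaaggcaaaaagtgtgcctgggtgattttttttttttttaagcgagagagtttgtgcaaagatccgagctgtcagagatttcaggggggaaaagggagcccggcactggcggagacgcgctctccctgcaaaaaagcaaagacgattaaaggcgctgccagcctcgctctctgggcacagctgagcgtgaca
The Hoxa7 window held TTTATG 2 times, a motif found in 11.9% of 32851 promoters of this length, and no CACGTG. The En1 window held CACGTG 2 times, a motif found in 7.15% of promoters, and no TTTATG. A match is a stretch of letters and not a measured binding site.

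Zfhx4 and En1, which the selection had not used, were given with the label of these cells. They were chosen from earlier results of these data, so their levels describe the cells and are no independent check. Zfhx4, a large zinc finger homeodomain factor, was at 409 CPM (399 to 418) in Hox-positive cells, 203 CPM (198 to 209) in Hox-zero cells of the same library and 23.4 CPM (21.9 to 24.9) in Hox-zero cells of Tbx1+/+ carrier. Its level in the Hox-zero cells was 25.7 CPM with minoxidil and 34.4 CPM with PGE2. The Hox-positive cells were the highest of the 5 sets, with a log2 ratio of 1.01 to the Hox-zero cells of their library, and those Hox-zero cells in turn were above the other 3 libraries. After thinning, 77.6% of Hox-positive cells, 49.9% of Hox-zero cells and 9.51% of Tbx1+/+ Hox-zero cells had a Zfhx4 UMI. En1, a homeodomain factor of dermal and dorsoventral patterning, was at 103 CPM (98.0 to 107), 24.6 CPM (22.7 to 26.7) and 0.05 CPM in the same 3 sets, with only 2 UMIs in the last and log2 ratio 2.06 between the first and the next. With minoxidil En1 had 2 UMIs and with PGE2 4 UMIs in Hox-zero cells. Both markers thus sat highest in the Hox-positive cells and were also present in the Hox-zero cells beside them.

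Within Y only cells the markers kept their order. Zfhx4 was at 419 CPM (409 to 429) in Hox-positive, 231 CPM (224 to 238) in Hox-zero and 25.1 CPM (23.2 to 27.2) in Tbx1+/+ Hox-zero cells. En1 was at 103 CPM, 28.1 CPM and 0 in the same 3 sets. In the 162 Xist only Hox-zero cells of the Tbx1neo2/neo2 carrier library, by contrast, Zfhx4 stood at 22.7 CPM and En1 at 0.4 CPM, near the 20.4 CPM and 0.2 CPM of Xist only cells in Tbx1+/+ carrier. Hence the raised Zfhx4 and En1 of the mutant carrier library lay in its Y only mesenchyme, with or without detected Hox UMIs, and not in its Xist only mesenchyme. Which embryo a cell came from is not recorded, so sex and embryo cannot be told apart.

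The threshold on Hox UMIs did not fall at a gap. Cells with 1 Hox UMI, just outside the rule, were at 349 CPM of Zfhx4 and 75.6 CPM of En1, and the 162 cells with exactly 2, just inside, at 369 and 90.9 CPM. Cells with 3 to 5 Hox UMIs were at 384 CPM of Zfhx4 and 86.3 CPM of En1, and cells with 6 or more at 433 and 115 CPM. Acta2, the smooth muscle actin, was at 346, 272 and 337 CPM in the first 3 of these ranges and at 911 CPM in cells with 6 or more Hox UMIs.

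The other Hox genes of groups 6 to 9 were mostly higher in Hox-positive cells. Of 8 genes of groups 6 to 9 outside the rule, 6 were called higher in Hox-positive than in Hox-zero cells and 0 lower, with a median log2 ratio of 3.73. A call here means at least 1.5-fold with intervals that do not overlap, among genes with at least 20 UMIs in both sets together. By this rule 3.91% of the 13846 genes tested were called higher and 5.53% lower, and the median log2 ratio over all genes was 0.01. Hoxa9 was at 40.2 CPM (37.3 to 43.3) against 1.56 CPM (1.11 to 2.14), Hoxb7 at 19.1 against 1.48 CPM and Hoxb8 at 14.1 against 0.64 CPM. Hoxa6, Hoxb6 and Hoxb9 were called higher too, while Hoxd8 (16.7 against 11.4 CPM) and Hoxd9 (2.70 against 2.13 CPM) were not called. All 8 were at or below 0.26 CPM in Tbx1+/+ Hox-zero cells.

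Few UMIs were found beyond group 10. Hoxa10 was at 15.7 CPM against 1.36 CPM in Hox-zero cells and 0 in Tbx1+/+. Hoxa11 had 14 UMIs in Hox-positive cells, Hoxd13 had 3, and Hoxc10, Hoxc11, Hoxc12 and Hoxc13 had none. Anterior genes went the other way, with 3 of 7 tested genes of groups 1 to 3 called lower, 0 higher and a median log2 ratio of -0.67. Hoxa2, the gene of the second pharyngeal arch, was at 14.3 CPM in Hox-positive cells, 44.3 CPM in Hox-zero cells and 41.7 CPM in Tbx1+/+ Hox-zero cells. Hoxa3, which is required for thymus formation, was at 22.9, 43.5 and 56.9 CPM, and Hoxd3 at 1.07, 4.45 and 7.68 CPM. Of the 7 genes of groups 4 and 5, Hoxc5, Hoxb5 and Hoxc4 were called higher and Hoxd4 and Hoxa4 lower. Hoxc5 stood at 48.3 CPM in Hox-positive cells, 16.9 CPM in Hox-zero cells and 0.91 CPM in Tbx1+/+ cells.

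**Figure D2:**
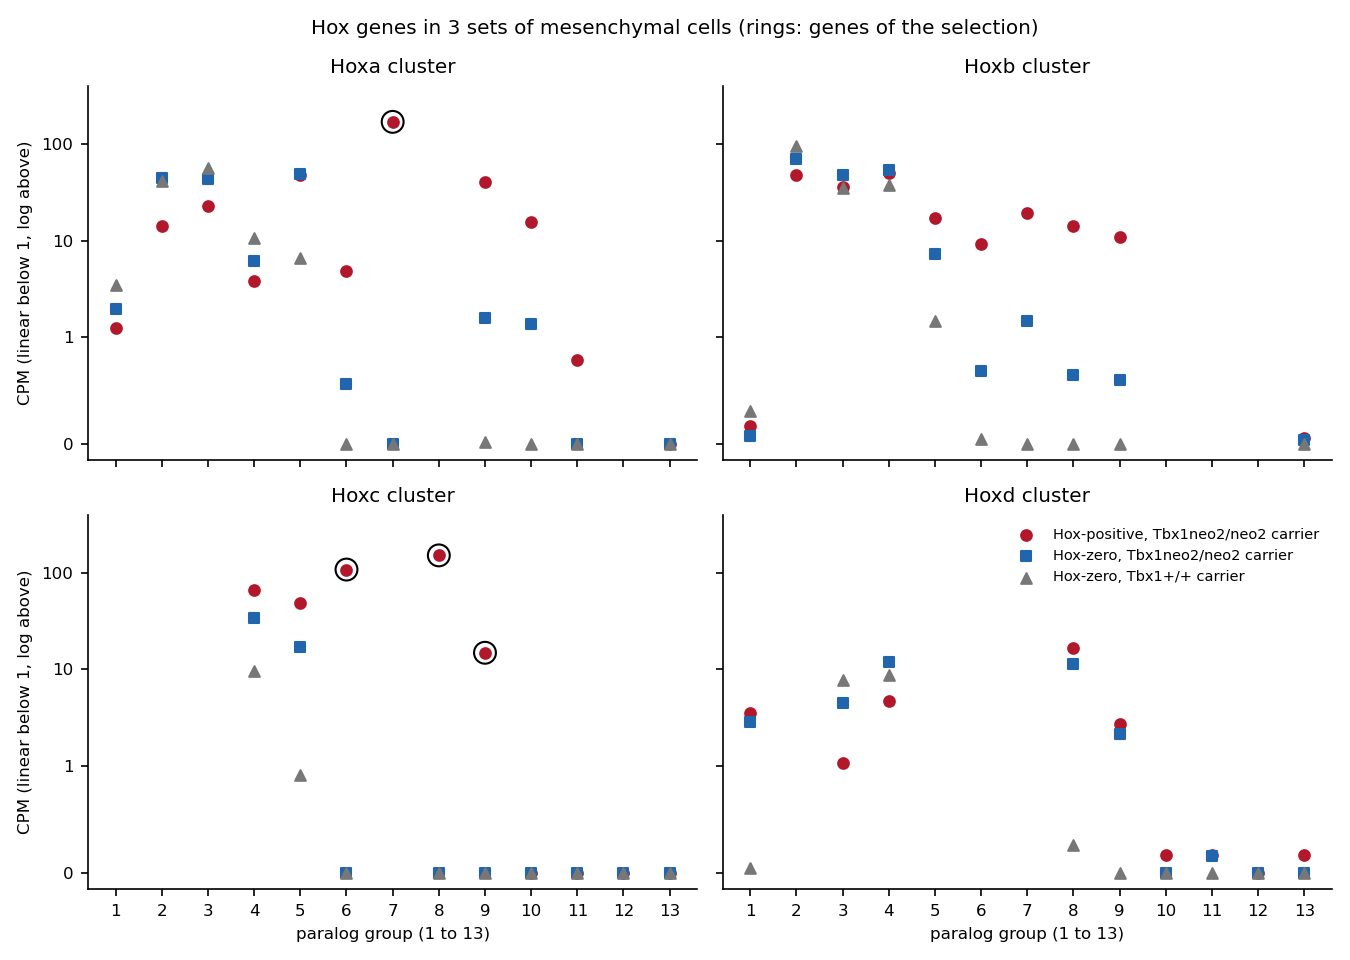
Level in CPM (linear below 1 and logarithmic above) of each Hox gene by paralog group (1 to 13) in the 4 clusters, for Hox-positive and Hox-zero cells of the Tbx1neo2/neo2 carrier library and Hox-zero cells of the Tbx1+/+ carrier library. Rings mark the 4 genes of the selection, and groups 6 to 9 are highest in the Hox-positive cells (Hoxa9 40.2 CPM against 1.56 and 0.02 CPM) while Hoxa2 and Hoxa3 are lowest in them.

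In its summed level Hoxa5 did not follow the other posterior genes of its cluster. It was at 48.2 CPM in Hox-positive and 48.8 CPM in Hox-zero cells, against 6.64 CPM in Tbx1+/+ Hox-zero cells. Hoxa5 was still detected in more of the Hox-positive cells (37.8%) than of the Hox-zero cells (19.6%). After thinning these shares were 17.3% (15.1 to 19.7) and 13.5% (11.9 to 15.2). Within the Hox-zero cells of the library Hoxa5 was at 54.9 CPM in Y only and 3.73 CPM in Xist only cells. Of 9 Hox cofactors, which bind DNA together with Hox proteins, Meis1 (69.2 against 118 CPM) and Meis2 (173 against 268 CPM) were called lower and none higher. Within Y only cells Meis2 (176 against 264 CPM) and Hoxa4 (3.86 against 5.87 CPM) were not called, Meis3 was called lower, and the counts for groups 1 to 3 and 6 to 9 were the same.

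Among all genes with at least 50 CPM in either set, the 15 with the largest ratios included En1, Fam46a, Igfbp2, Tagln, Acta2, C1qtnf3, Nexn, Matn4, Hs3st3b1, Hmcn1, Egfl6, 2700069I18Rik, Irx5 and Plpp3. Igfbp2, a binding protein of insulin-like growth factors, was at 158 CPM (152 to 164), 52.2 CPM and 62.2 CPM. Of genes of the actin cytoskeleton, Acta2 was at 642 CPM (630 to 654) against 226 CPM (log2 ratio 1.51), Tagln at 418 CPM against 142 CPM (1.55) and Nexn at 62.9 CPM against 25.3 CPM (1.31). Genes of the matrix were Matn4 (68.4 against 27.6 CPM), Hmcn1 (72.6 against 29.8 CPM), Egfl6 (175 against 73.5 CPM) and C1qtnf3 (73.3 against 27.9 CPM). C1qtnf3 had no UMI in the Tbx1+/+ Hox-zero cells, and Irx5, an Iroquois homeodomain factor, was at 63.6, 27.1 and 2.26 CPM in the 3 sets. All of these genes but Igfbp2 were also lower in the Tbx1+/+ Hox-zero cells than in the Hox-zero cells beside the Hox-positive ones. Matn4 was at 293 CPM in Col2a1-positive cells with at least 2 Hox UMIs, a set described further below. There Hs3st3b1 (113 against 56.0 CPM in the Hox-positive cells), Hmcn1 (83.0 CPM) and Fam46a (198 against 193 CPM) were also as high or higher. The other genes named were lower there, among them Acta2 (282 CPM), Egfl6 (70.4 CPM) and, by little, C1qtnf3 (71.9 CPM).

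The 15 genes with the smallest ratios were Aldh1a2, Kcnj8, Abcc9, Ifitm1, Stmn2, Penk, Ebf1, Gdf10, Hand2, Ifitm3, Zeb2, Epha3, Ramp2, Cxcl12 and Gata6. Aldh1a2, which makes retinoic acid, was at 4.10 CPM (3.21 to 5.16) in Hox-positive cells, 63.6 CPM (60.5 to 66.8) in Hox-zero cells and 150 CPM in Tbx1+/+ Hox-zero cells (log2 ratio -3.96). Kcnj8 and Abcc9, which encode the pore and the sulfonylurea receptor of a potassium channel sensitive to ATP found in pericytes, were at 3.82 against 57.8 CPM (-3.92) and 5.17 against 53.5 CPM (-3.37). Channels of this kind are opened by minoxidil, and their transcripts were scarce in the Hox-positive cells. Transcription factors in the group were Hand2 (16.1 against 60.6 CPM), Ebf1 (62.1 against 249 CPM), Gata6 (63.5 against 189 CPM) and Zeb2 (49.8 against 177 CPM). The chemokine Cxcl12, which attracts thymus-seeding progenitors, was at 52.5 CPM (49.2 to 56.0) against 174 CPM and 283 CPM in Tbx1+/+. All 15 were highest in the Tbx1+/+ cells, intermediate in the Hox-zero cells of the mutant library and lowest in the Hox-positive cells.

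**Figure D3:**
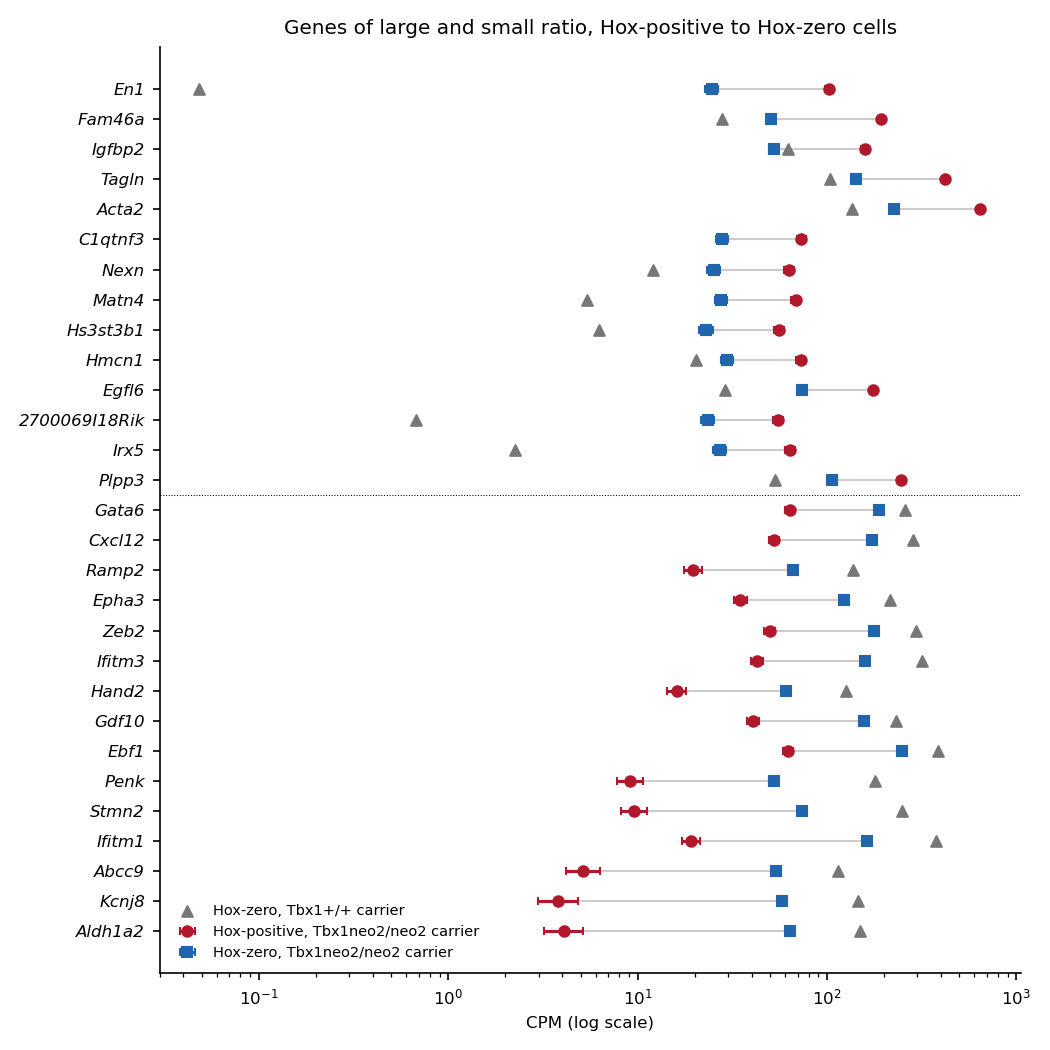
Level in CPM (log scale) of genes among the 15 largest ratios and of the 15 smallest ratios of Hox-positive to Hox-zero cells in the Tbx1neo2/neo2 carrier library, with Poisson 95% intervals, and of the same genes in Hox-zero cells of Tbx1+/+ carrier (triangles, C1qtnf3 at 0 and not drawn). In the lower group Aldh1a2 stands at 4.10, 63.6 and 150 CPM, and the Hox-zero cells lie between the other sets for all genes of that group.

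The same differences were measured within Y only cells. There, 931 Hox-positive against 1319 Hox-zero, 457 genes were called higher (3.36% of those tested) and 697 lower (5.13%), and all 30 genes with the largest and smallest ratios were called in the same direction. Acta2 was at 651 against 256 CPM (1.35), Kcnj8 at 2.99 against 37.6 CPM (-3.65) and Aldh1a2 at 3.30 against 41.7 CPM (-3.66). The Y only Hox-zero cells of Tbx1+/+ carrier had Kcnj8 at 142 CPM, near the 182 CPM of the Xist only Hox-zero cells of the mutant carrier library.

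The Hox-zero cells of the drug libraries, in which treatment and sex cannot be told apart, were near Tbx1+/+ carrier for many of these genes and not for all. Kcnj8 was at 144 CPM with minoxidil and 132 CPM with PGE2. Cxcl12 was at 388 and 373 CPM, above all sets of the carrier libraries. Acta2 was at 262 CPM with minoxidil and at 705 CPM with PGE2, above the level of the Hox-positive cells, and Tagln was at 165 and 582 CPM. With PGE2 Nexn (38.9 CPM), Penk (62.2 CPM) and Aldh1a2 (81.99 CPM) also stood away from Tbx1+/+ (12.1, 180 and 150 CPM). High Acta2 was thus not particular to Hox-positive cells. Scx (10.1 CPM with minoxidil and 2.09 CPM with PGE2) and Sox9 (39.7 and 32.7 CPM) were low in both drug libraries. Neither was particular to Hox-positive cells, since the Hox-zero cells of the Tbx1neo2/neo2 carrier library also carried both, at levels given below.

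Tendon and ligament genes were higher in the Hox-positive cells. Of 8 tendon and ligament genes, 6 were called higher and 0 lower, with a median log2 ratio of 0.92. Scx, the tendon transcription factor, was at 182 CPM in Hox-positive cells, 105 CPM in Hox-zero cells and 15.2 CPM in Tbx1+/+ Hox-zero cells. Tnmd, a late marker of tendon cells, was at 39.95, 11.5 and 0.60 CPM, and the matrix proteins Thbs4 and Tnc were at 68.0, 32.9 and 0.51 CPM and at 124, 77.3 and 7.92 CPM. Mkx and Fmod were called higher at lower levels (8.82 against 3.93 CPM and 8.76 against 3.05 CPM), while Col12a1 (218 against 157 CPM) and Kera were not called. Among Y only cells 5 of the 8 were higher (median 0.72), Tnc not being called at 122 against 89.9 CPM. A Scx UMI was found after thinning in 41.8% of Hox-positive, 24.4% of Hox-zero and 4.33% of Tbx1+/+ Hox-zero cells.

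Somite, dermal and smooth muscle genes were higher in part. Of 9 genes of somite derivatives, 4 were called higher and 2 lower (median 0.57). Pax1 was at 18.6 against 5.38 CPM, Sim1 at 7.75 against 0.88 CPM, and Meox1 at 128 against 76.2 CPM, with Tcf15 the other gene called higher. After thinning, a Pax1 UMI was found in 8.46% of Hox-positive, 2.10% of Hox-zero and 3.65% of Tbx1+/+ Hox-zero cells. Foxc2 (1.91 against 14.8 CPM) and Meox2 (32.0 against 49.8 CPM) were lower. Of 4 dermal genes, En1 and Twist2 (115 against 62.5 CPM, and 24.8 CPM in Tbx1+/+) were higher. Of 7 smooth muscle genes, Myl9, Cnn1, Tagln, Acta2 and Myh11 were higher and Des and Eln (31.3 against 68.5 CPM) lower, with a median of 1.30. The heavy chain that defines mature smooth muscle, Myh11, was at only 2.64 against 1.003 CPM. Within Y only cells Pax9 joined the somite genes called higher, Des was not called, and the other calls of these 3 lists were the same.

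Genes of cartilage were not absent from these cells although Col2a1 was at 0 by selection. Of 11 cartilage genes tested, Matn4, Col9a3, Col11a1, Sox5 and Sox9 were called higher and Sox6 lower, with a median of 0.06. In the Y only cells 3 of 10 were higher, and Sox9 (228 against 164 CPM) and Sox5 (7.85 against 5.26 CPM) were not called. Sox9, the master regulator of chondrocytes, was at 227 CPM in Hox-positive cells, 145 CPM in Hox-zero cells and 31.3 CPM in Tbx1+/+ Hox-zero cells. Of 7 osteogenic genes tested, 2 were called higher and 2 lower, with a median of -0.51 (-0.76 within Y only cells). The osteogenic factor Runx2 (21.4 against 9.23 CPM, and 0.99 CPM in Tbx1+/+) was called higher. Msx1 (0.79 against 7.02 CPM) and Spp1 were lower, the last not within Y only cells, where Msx2 was lower. The name non-cartilage therefore rests on Col2a1 alone. The Col2a1-positive gated cells of the library held a further 980 Hox-positive cells of 2125, with Hoxa7 at 289 CPM and Hoxc8 at 158 CPM, and 869 of them were Y only and 1 Xist only. Their Zfhx4 was at 299 CPM, En1 at 70.5 CPM and Sox9 at 758 CPM. The Col2a1-positive Hox-zero cells beside them were at 210 CPM of Zfhx4 and 6.56 CPM of En1, so that both differed with Hox UMIs in Col2a1-positive cells too.

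Matrix genes differed by family. Of 11 fibrillar and beaded collagen genes only Col14a1 was called higher and none lower, with a median of 0.13. Of 8 small leucine-rich proteoglycan genes 3 were higher and 2 lower (2 and 2 within Y only cells), with a median of -0.07. Ogn was higher (587 CPM, 341 CPM in Hox-zero cells and 39.6 CPM in Tbx1+/+) and Aspn lower (143, 280 and 16.03 CPM), both far above their Tbx1+/+ level. Of 11 basement membrane genes Lama2, Col4a1 (95.2, 152 and 298 CPM) and Nid1 were lower and none higher. Within Y only cells Col14a1 (122 against 89.95 CPM) and Col4a1 (91.5 against 120 CPM) were not called, which left none of the fibrillar collagens higher and 2 basement membrane genes lower.

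Genes of the pharyngeal and lateral plate mesenchyme were mixed. Of 10 pharyngeal and cranial crest genes, Gsc was called higher (58.7 against 33.5 CPM) and 4 homeodomain genes of the arches lower, with a median of 0.04. Dlx1 (0.22, 5.90 and 16.7 CPM in Hox-positive, Hox-zero and Tbx1+/+ Hox-zero cells), Dlx2 (0.22, 5.78 and 16.8 CPM), Alx1 (1.12, 13.6 and 24.1 CPM) and Barx1 (2.64, 31.1 and 69.3 CPM) were thus nearly absent from Hox-positive cells. Of 13 genes of lateral plate and limb, 3 were called higher, among them Foxf2 and Emx2, and 5 lower, namely Hand2, Gata4, Isl1, Pitx1 and Alx4. Tbx5, of the forelimb and heart fields, was not called between the sets (77.8 against 55.8 CPM), but stood at 6.21 CPM in Tbx1+/+ Hox-zero cells. In the Y only cells Shox2 was a further limb gene called lower, and the median of the pharyngeal list was -0.35.

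Secreted signals and their pathways differed by list. Of 12 thymus-supporting ligands, Tgfb3 was called higher and Fgf7, Fgf10, Hgf and Cxcl12 lower, with a median of -0.21. Fgf10, a growth factor for thymic epithelium, was at 6.405 CPM in Hox-positive cells, 29.2 CPM in Hox-zero cells and 46.4 CPM in Tbx1+/+ Hox-zero cells. Of 11 angiogenic and guidance genes, Ephb1 was higher and Angpt1 (6.52 against 27.1 CPM), Angpt2, Vegfc and Ephb2 lower. Angptl1, a secreted angiopoietin-like protein, was not called between the sets at 232 against 173 CPM, and was at 8.26 CPM in Tbx1+/+ cells. Of 14 Wnt pathway genes, Wif1 (20.001 against 4.81 CPM), Rspo1 and Wnt11 were higher and Wnt2 and Wnt4 lower. Of 14 genes of the BMP and TGF-beta pathway, Gdf5, Bmp3, Nog and Inhba were higher and Gdf10 lower. In retinoid signalling Crabp2 (296 against 195 CPM) and Aldh1a3 (37.1 against 21.3 CPM) were higher, and 4 genes, among them Aldh1a2, Rarb and Cyp26b1, lower. Among Y only cells Tgfb3 (53.2 against 37.96 CPM), Nog (4.17 against 2.70 CPM) and Crabp2 (294 against 218 CPM) were not called, while Pdgfa was higher and Ltbp1 lower.

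**Figure D4:**
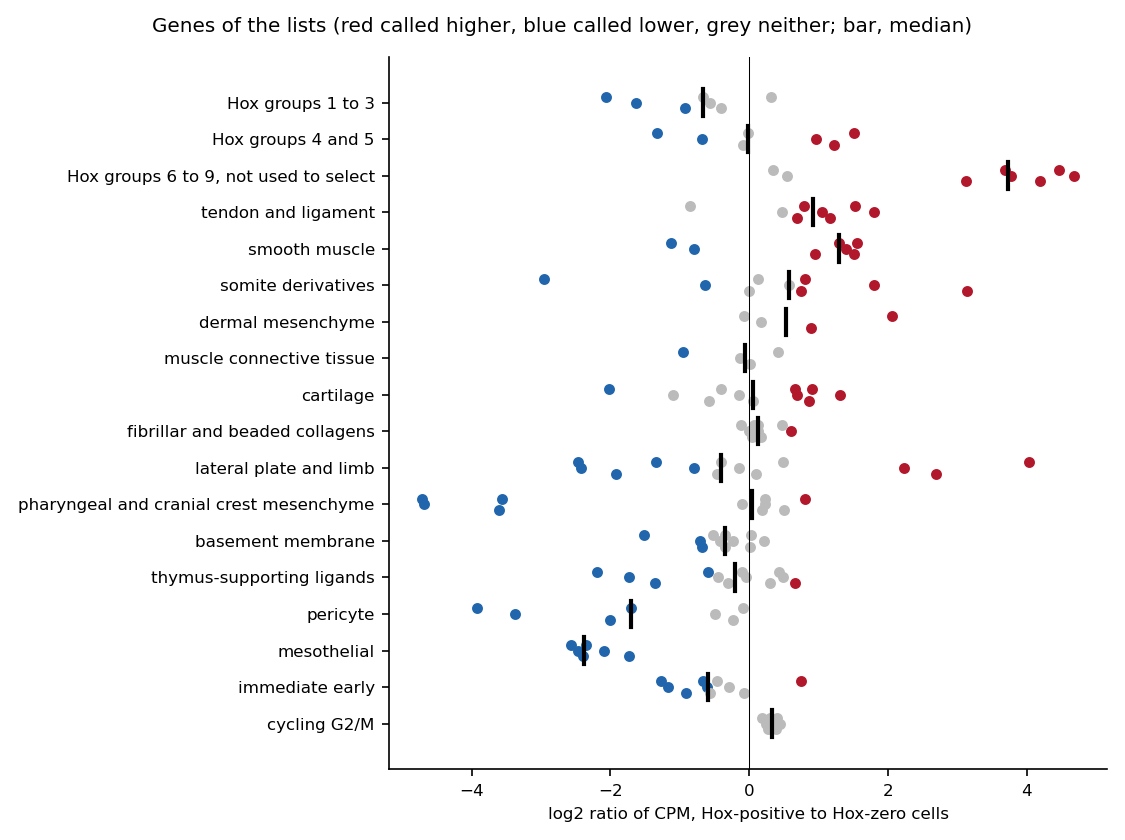
Log2 ratio of CPM in Hox-positive to Hox-zero cells of the Tbx1neo2/neo2 carrier library for each tested gene of the lists shown, 1 point per gene, coloured by call, with the median of each list as a bar. The highest median is that of Hox groups 6 to 9 outside the rule (3.73) and the lowest that of the mesothelial list (-2.38).

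Markers of other cell types were given for the whole list in each set, since neighbouring types and free RNA may move with such contrasts. All 6 mesothelial genes were lower, with summed levels of 5.73 CPM in Hox-positive cells, 30.0 CPM in Hox-zero cells and 110 CPM in Tbx1+/+ Hox-zero cells, and Msln was at 0 in the Hox-positive cells. Of 7 pericyte genes 4 were lower and 0 higher (summed 118, 424 and 780 CPM). The neuronal list summed to 21.9, 85.3 and 257 CPM with Stmn2 its most abundant gene, and the myogenic list to 17.9, 12.998 and 1.01 CPM, with Pax7 (4.16 against 0.36 CPM) and Myf5 (1.74 against 0.12 CPM) higher. Endothelial genes summed to 23.3, 32.0 and 49.4 CPM, thymic epithelial genes to 55.0, 54.9 and 79.6 CPM and glial genes to 10.5, 14.04 and 4.74 CPM. Hematopoietic genes summed to 10.1, 13.1 and 24.6 CPM and parathyroid genes to 0.39, 0.40 and 23.9 CPM. The pericyte list holds Kcnj8 and Abcc9. The part of other cell types in the results was not tested.

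Possible signs of handling and signs of cell state differed as well. The erythroid list summed to 3241 CPM in Hox-positive, 5575 CPM in Hox-zero and 2700 CPM in Tbx1+/+ Hox-zero cells. Of its 8 genes 5 were lower (4 within Y only cells), and the source of these UMIs was not tested. Of 10 immediate early genes, which respond to dissociation of tissue, 5 were called lower and 1 higher (median -0.59), and 5 and 0 within Y only cells. Fos was at 107 CPM in Hox-positive, 201 CPM in Hox-zero and 1118 CPM in Tbx1+/+ Hox-zero cells. Between the libraries, handling and genotype cannot be told apart for these genes. The median mitochondrial share was 5.27%, 5.73% and 5.33% and the median UMIs per cell 15345, 13731.5 and 16075.5. The part of these signs in the results was not tested. All 8 G2/M genes leaned higher in Hox-positive cells but none was called (median 0.32), 1 being called within Y only cells. After thinning, 31.5% (28.7 to 34.4) of Hox-positive, 24.2% (22.2 to 26.3) of Hox-zero and 33.7% (31.8 to 35.7) of Tbx1+/+ Hox-zero cells had at least 2 of these 8 genes.

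Against the Hox-zero mesenchyme of Tbx1+/+ carrier, of 14406 genes 10.9% were called higher and 12.4% lower in the Hox-positive cells. The Hox-zero cells of the mutant library, set against the same Tbx1+/+ cells, gave 8.05% higher and 8.13% lower of 14551 genes. The comparisons share the Tbx1+/+ cells and are therefore only set side by side. Of the tendon genes, 7 were called higher and 0 lower in both, with medians of 3.77 for Hox-positive and 3.04 for Hox-zero cells. Immediate early genes gave 9 lower and 0 higher in both, with medians of -2.51 and -1.89. Of the pericyte genes 6 were lower in both, with medians of -2.64 and -0.999, and of the basement membrane genes 8 and 6 were lower, with medians of -0.98 and -0.63. Zfhx4 had log2 ratios of 4.13 and 3.12, Scx of 3.58 and 2.79, Sox9 of 2.86 and 2.21, Ogn of 3.89 and 3.11, and Angptl1 of 4.81 and 4.39. For these 5 genes the Hox-positive cells were the farther of the sets from Tbx1+/+, and Aspn was the reverse at 3.16 and 4.12.

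The Hox-zero cells were also set against Tbx1+/+ carrier within each sex, and the difference between the sexes was not tested. Y only Hox-zero cells against Y only cells of Tbx1+/+ carrier gave 9.06% of 14014 genes higher and 8.98% lower. There 7 tendon genes were higher and 0 lower (median 3.20), and 6 pericyte genes (median -0.98) and 6 basement membrane genes lower. Xist only Hox-zero cells, few in number, gave 1.27% of 11922 genes higher and 6.89% lower against Xist only cells of Tbx1+/+ carrier. In them 0 of 4 tendon genes tested were higher and 3 lower (median -1.35), 2 pericyte genes were higher and 2 lower (median -0.06), and 1 basement membrane gene was lower. Immediate early genes were lower in both, 9 of 10 in Y only and 10 of 10 in Xist only cells. The higher tendon genes of the pooled Hox-zero cells were thus measured in the Y only cells and not in the Xist only cells, in which the pericyte genes went both ways.

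The Hox-positive cells were themselves of several kinds. Clustered on their own, without Hox, ribosomal, mitochondrial, hemoglobin and sex-linked genes and the cell cycle genes of the lists, they gave 10 clusters, numbered here. All come from 1 library. The genes that lead a cluster describe it and were not tested. Cluster 0 (191 cells) was led by Scg2, Dpt, Epha5, Lrrtm1 and Fezf2 and had Col1a1 at 4010 CPM, Dcn at 967 CPM and Twist2 at 279 CPM, for each the highest of the 10 clusters. It had Hoxc8 at 215 CPM but Hoxa7 at only 32.6 CPM and Hoxa5 at 7.0 CPM, and Scx at 19.8 CPM. Cluster 3 (85 cells), led by Cldn11, Krt8, Krt18, Pcdh9 and Ctsh, had Hoxa7 at 452 CPM, Hoxa5 at 134 CPM and Hoxc8 at 32.6 CPM. A cell with few Hoxa7 UMIs passed the rule only through the Hoxc genes, and the reverse, so the levels of Hoxa7 and Hoxc8 describe the clusters and Hoxa5 alone of the 3 was outside the rule.

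Several clusters differed in the levels of Scx, Tnmd and Sox9. Cluster 6 (74 cells) was led by Thbs4 (513 CPM), C1qtnf3 (520 CPM), Grem1 (208 CPM) and Ssc5d, with Scx at 655 CPM, Tnmd at 164 CPM, Meox1 at 368 CPM and Twist2 at 3.0 CPM. Cluster 2 (31 cells) was led by Gdf5, Col9a1, Adamts18, Hlx and S100b, with Sox9 at 734 CPM and Hoxa7 at 425 CPM. Cluster 1 (94 cells), led by Wfdc2, Cpm, Matn4, Cpne8 and Sparcl1, had both Scx (456 CPM) and Sox9 (395 CPM). Cluster 5 (161 cells) held the actin genes, with Acta2 at 2121 CPM and Tagln at 1179 CPM, together with Cnn1, Lurap1l and Acot1, Sox9 at 576 CPM and Runx2 at 60.0 CPM. The cluster with the highest actin gene levels thus also carried Sox9 and Runx2.

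The remaining clusters were led by other genes. Cluster 4 (208 cells) was led by Mfap5, Klf2, Tppp3, Fgf18 and Akap12, and cluster 8 (39 cells) by Gpr83, Nppc, Ngfr, Ccl11 and Dchs2. Kcnj8 had 53 UMIs in cluster 4 (16.4 CPM), 10 in cluster 7 and at most 3 in each of the others. At the finer resolution of 1.0 a cluster of 24 cells was led by Rgs5, Ndufa4l2, Gucy1a3, Kcnj8 and Abcc9, genes that include pericyte markers, and it held the 1 Xist only cell. Cluster 7 (160 cells) was led by the mitotic genes Depdc1a, Ccnf, Cdca2, Nusap1 and Kif11 and had a median of 21474 UMIs. Cluster 9 held 12 cells led by Myf5, Pax7, Msc, Dbx1 and Myod1, genes of muscle progenitors, with a median of 34283.5 UMIs, and 4 of the 12 were among the 6% of cells with the highest doublet scores. Zfhx4 was between 211 and 624 CPM and En1 between 22.7 and 134 CPM over the 10 clusters, so that neither marker was limited to a kind of Hox-positive cell.

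**Figure D5:**
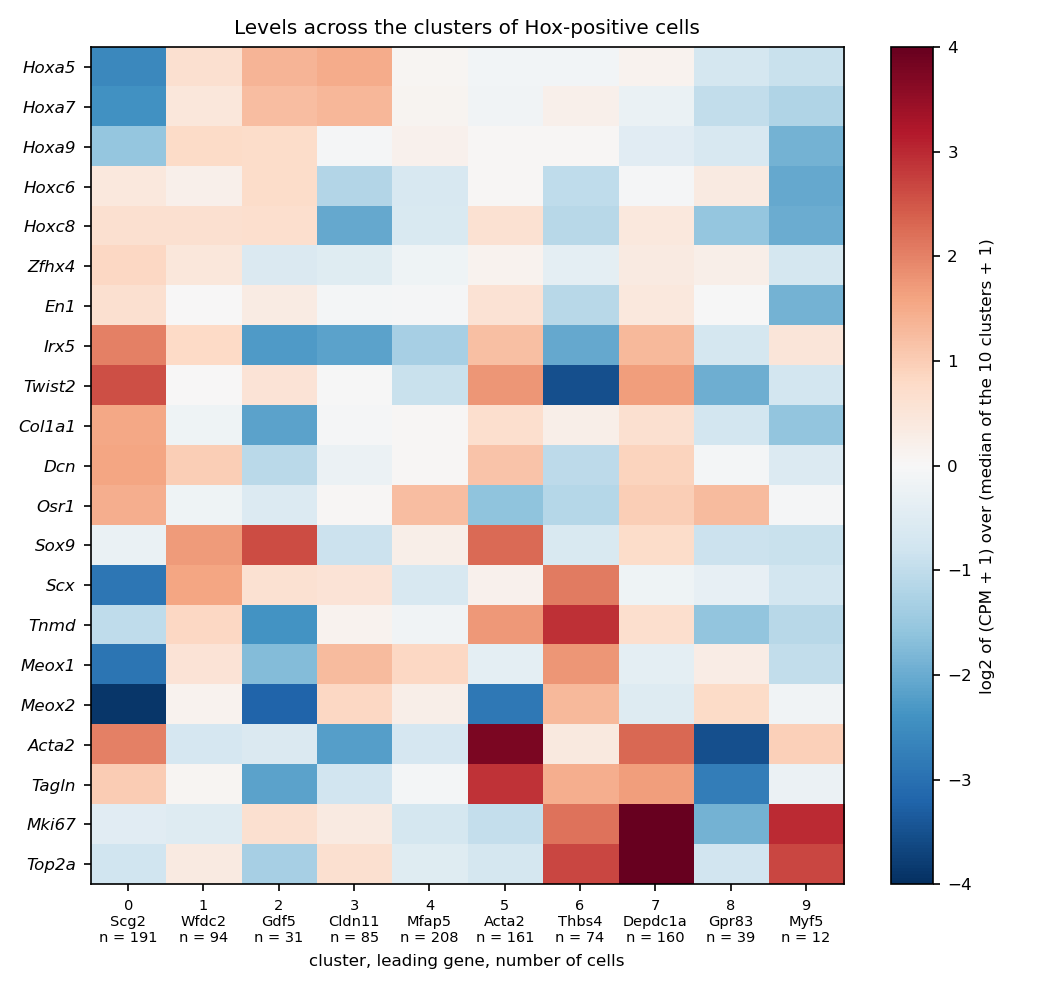
Level of selected genes in the 10 clusters of Hox-positive cells, as log2 of (CPM + 1) over the median of the 10 clusters plus 1, with the leading gene and number of cells of each cluster below. Hoxa7 is low in cluster 0 (32.6 CPM) and high in cluster 3 (452 CPM), Hoxc8 the reverse, Tnmd and Scx are high in cluster 6, Sox9 in cluster 2 and Acta2 in cluster 5.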

How the data were processed

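Thymic lobes were profiled by scRNA Seq, 1 library for each of 4 conditions. The deposited tables hold raw UMI counts for each gene in each barcode that the authors called as a cell. The authors aligned reads to mm10 with Cell Ranger 5.0.1 (version from the submitters' processing notes), and the deposited counts are not normalized. The use of intronic reads is not given in the sources used here. The deposited libraries held 11908, 11364, 3362 and 4471 cells in the order Tbx1+/+ carrier, Tbx1neo2/neo2 carrier, minoxidil and PGE2. The mitochondrial limit of 10% was chosen here, and the limit of 200 genes follows the methods of the study. The summed UMIs were 17798844 for Hox-positive, 24927340 for Hox-zero and 41541025 for Tbx1+/+ Hox-zero cells.

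Levels were summed UMIs as CPM with exact Poisson intervals and shares had Clopper-Pearson intervals, both at 95% and for counting error only. A share of 0 was limited at 3 counts. For depth, cells were thinned to 5000 UMIs and shallower cells left out. The genes named from the whole table were the 15 largest and 15 smallest ratios among called genes with at least 50 CPM in either set, of which 1 is not reported here. The other genes came from fixed lists. The members and lists were chosen with earlier results of these data known. Clusters were Leiden clusters at resolution 0.5 in scanpy 1.11.5 (anndata 0.12.19, igraph 0.11.9). Doublets were scored with Scrublet, whose automatic threshold called 0 of 10683 cells in the Tbx1neo2/neo2 carrier library, so no cell was removed. Alternatives changed the selection, mitochondrial limit, depth, scaling (TMM from edgeR 4.0.16 in R 4.3.3), call rule and cell sets. Values were computed with pandas 2.3.3, scipy 1.17.1 and numpy 2.4.6 under Python 3.11.15, drawn with matplotlib 3.10.9, and the code was tested on simulated data. Gene positions are of GRCm38 (GENCODE).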

Additional observations from a re-analysis of the deposited data

Results flagged for a closer look

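UMIs of Hoxc6, Hoxc8 and Hoxc9 were also found in cells that the mesenchymal gate left out. Of such cells, the epithelial cells and the cells with Ptprc UMIs were described above. In the Tbx1neo2/neo2 carrier library, 609 of 5478 kept cells outside the gate (11.1%, 10.3 to 12.0) had at least 2 UMIs of these 3 genes. In Tbx1+/+ carrier it was 1 of 9052 cells (0.0110%), and with minoxidil and PGE2 0 of 2338 and 0 of 3384 cells. The median UMIs of the cells outside the gate were 16081.5 in Tbx1neo2/neo2 carrier and 24338 in Tbx1+/+ carrier. The kinds of cell among the 609 were not tested.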

How the results depend on the processing

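No paired analysis was possible because each condition had 1 library, and no replicate was left out. The number of Hox-positive cells in Tbx1neo2/neo2 carrier was 402 at a 5% mitochondrial limit and 768 to 1368 in the other settings. Their share was 44.4% at 1 Hox UMI or more, 29.0% at 3 or more, 26.5% on the Hoxc genes alone, 43.7% at the 5% limit and 22.1% after thinning. In Tbx1+/+ carrier it was 0.543% at 1 UMI or more, and 0 at 3 or more, on the Hoxc genes alone, after thinning and without the 6% of cells with the highest doublet scores. With minoxidil it was 0 after thinning, and with PGE2 2.27% at the 5% limit and 0.267% after thinning. Of genes called, 541 higher and 766 lower became 351 and 485 after thinning, 298 and 495 at 2-fold, 359 higher at the 5% limit and 475 lower with at least 5 CPM. Of these, 288 higher and 410 lower calls after thinning were shared with the reported ones. At 2-fold 35 list genes were higher and 47 lower, in place of 59 and 71. All 30 genes with the largest and smallest ratios were called the same way in every setting, but 77 of 360 such values moved past their interval, among them 16 of 30 at the 5% limit and 15 of 30 in Y only cells. Of 168 medians of the 12 lists that differed by 1.5-fold or more, 34 moved by over 0.2 on the log2 scale and 5 turned direction. The median of the glial list turned from -0.89 to 0.048 with cells weighted equally. It was 0.34 with equal numbers of cells per bin of UMIs, 0.29 after thinning, 1.01 without cycling cells and 0.87 without the highest doublet scores. The cause of these turns was not tested. Scrublet calls were replaced by the highest scores after the data were seen. The settings with Y only cells and without myogenic cells were also added after the data were seen. At resolution 1.0 the Hox-positive cells gave 14 clusters in place of 10. With 1 library per condition, intervals cover counting error only, and the selection of cells by measured values bears on the size of the differences.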

Other observations

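Further gene lists were compared between Hox-positive and Hox-zero cells of the Tbx1neo2/neo2 carrier library. Of 4 genes of muscle connective tissue, Osr1 was lower, at 62.9 CPM in Hox-positive cells, 121 CPM in Hox-zero cells and 148 CPM in Tbx1+/+ Hox-zero cells, and none was higher. Of a list of 7 Sox, Runx and Tcf transcription factors, Runx1 (139, 67.1 and 20.2 CPM) and Sox11 (316, 181 and 90.8 CPM) were higher and Sox13 (0.84 against 6.46 CPM) lower. Of 3 zinc finger homeobox genes only Zfhx4 was called, and of 3 Hedgehog targets none. Of 9 S phase genes Rrm2 was higher and none lower.

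The Tbx1neo2/neo2 carrier library held 296 myogenic cells, against 6 in Tbx1+/+ carrier, a class that overlaps the sets compared above (cluster 9 among them), and 247 of the 296 were Y only and 3 Xist only. After thinning, 29.3% (24.0 to 35.0) of them had a UMI of Hoxa7, Hoxc6, Hoxc8 or Hoxc9. This was near the 29.2% (28.3 to 30.1) of all kept cells of the library.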
